A study of Mus musculus with 198 samples.

Results

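Gene bodies measured in the cortex of every mouse of the deep bisulfite set were examined for how evenly they lost methylation when 1 copy of Dnmt3a was missing. Of 34193 gene rows in a table of 66807 genes and enhancers, 21056 carried a value of both CA and CG methylation in all 8 animals and form the set described here. Another 12781 gene rows held no CA value in any animal, 110 held one in some animals only, and 246 lacked a CG value in at least 1 animal. The animals were 8-week-old C57BL/6J mice, 4 heterozygous Dnmt3a knockouts (hKO, 2 males and 2 females) and 4 wild types (WT, 2 males and 2 females). Some titles share a number between genotypes, and no label says whether it marks a litter. DNA came from bulk cortex, and the labels give a coverage between 6.4 and 7.8 genome equivalents for each animal. The table gives no read depth per gene, so no counting interval can be attached to a value, and the animals, which are separate mice, are the replicates. The labels state the genotype only as heterozygous knockout and do not say which part of the gene is deleted.

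DNMT3A is the methyltransferase that places new methyl groups on cytosine, and in neurons it writes methylation at CA sites (mCA) during the weeks after birth, when this mark becomes abundant in brain. CG methylation (mCG), which most cell types carry, is laid down earlier and copied at each division by DNMT1. Genes rich in mCA tend to be held at lower expression in neurons. Levels are percentages of the cytosines in each sequence context that were called methylated. Retained mCA is the hKO mean of a gene divided by its WT mean, in percent.

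The median gene carried 1.11%, 1.10%, 1.33% and 1.02% mCA in hKO animals 694, 046-2, 651-2 and 047-1, against 1.94%, 1.93%, 2.43% and 1.93% in WT animals 695, 046-1, 651-3 and 047-2. Every hKO cortex lay below every WT cortex, and animal 651-3 stood above the other WT animals. For mCG the median gene stood at 76.6%, 75.1%, 79.5% and 77.1% in hKO cortices, against 78.2%, 77.3%, 82.2% and 79.8% in WT cortices, and these ranges overlapped. Shallow libraries of 8-week cortex gave a level at CC sites, where little methylation is expected and which serves here as a background, of 0.267% in 7 hKO animals (SD 0.060) and of 0.3597% in 11 WT animals (SD 0.060). The unmethylated lambda spike-in of the same libraries read higher than CC, at 0.439% in hKO (SD 0.046) and 0.523% in WT (SD 0.105), and neither animal numbered 651 is among them. In bulk cortex, fewer cells that carry a mark and less of the mark per cell cannot be told apart. The Dnmt3a gene body itself held 0.794%, 0.715%, 0.881% and 0.655% in hKO cortices, against 1.14%, 1.04%, 1.52% and 1.296% in WT cortices, which is a retained mCA of 61.04% (limma, adjusted p = 0.01201). Methylation of the gene body does not check the deletion.

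**Figure D1:**
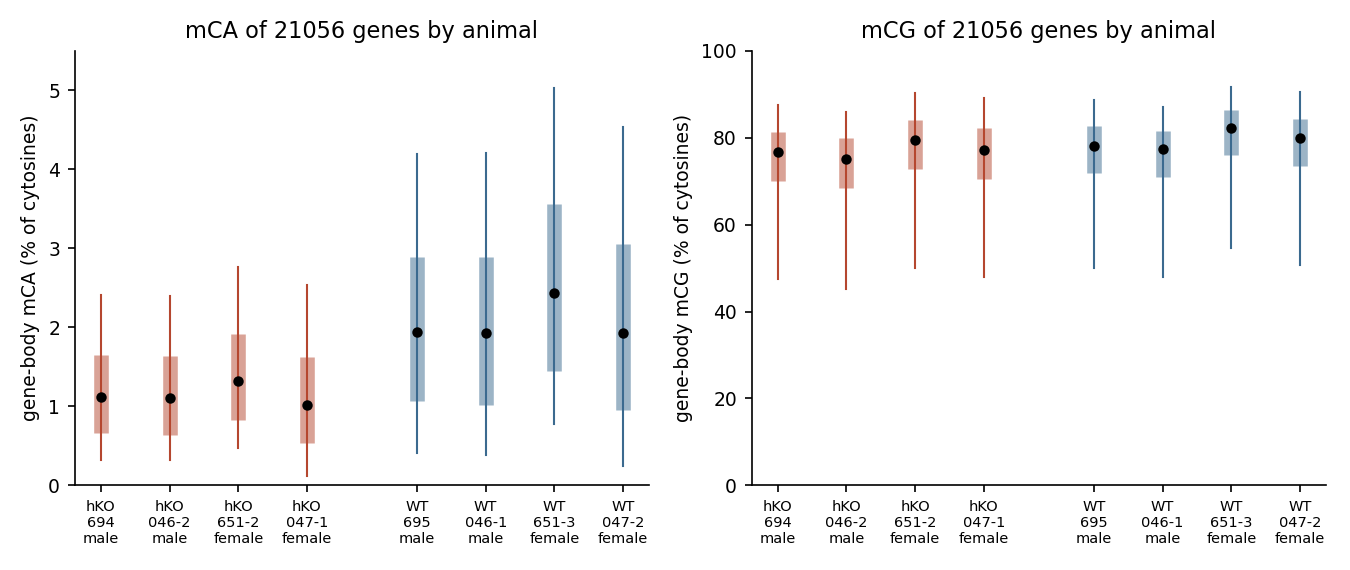
Gene-body mCA (left) and mCG (right) of 21056 genes in each of 8 cortices, as percent of cytosines, with hKO animals left of WT animals. Points are medians over genes, thick bars the quartiles and thin lines the 5th to 95th percentile; the hKO medians of mCA lie between 1.02% and 1.33% and the WT medians between 1.93% and 2.43%, whereas the mCG medians overlap.

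Relative to the WT mean of each gene, the median gene of the 4 hKO animals held 54.6%, 53.8%, 65.2% and 50.9% of its mCA. The WT animals, set against the same means, held 93.5%, 91.7%, 119.1% and 94.0%. Averaged over animals this was 56.1% ± 6.26 in hKO and 99.6% ± 13.1 in WT cortex (SD, n = 4 each). Permuting the genotypes over animals (exact, two-sided) gave p = 0.0286, which 4 against 4 animals cannot go below. Over the 7 tests made on 1 value per animal its adjusted p was 0.0667, and none of the 7 passed 0.05 after adjustment. Without 651-3 the mean retained mCA was 60.01%. Animals whose titles share a number gave a median retained mCA of 58.4% for 694 over 695, 58.4% for 046-2 over 046-1, 55.1% for 651-2 over 651-3 and 54.3% for 047-1 over 047-2. The high level of 651-3 was thus met by a high level in 651-2, and the 4 ratios lay close together.

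Gene by gene, mCA fell in 15456 of the 21056 genes, 73.4%, and rose in 6, 0.0285% (limma on the percentage, adjusted p under 0.05). A lower hKO mean was held by 20545 genes, 97.6%, and in 13753 genes, 65.3%, all 4 hKO cortices lay below all 4 WT cortices. The 6 genes that rose, which no rule had picked, were C1ql4, Gm14974, Gm15051, Mrgpra6, Nubp2 and Vmn2r-ps40. C1ql4, a secreted protein of the C1q family, held 0%, 1.96%, 4.26% and 7.69% in hKO cortices and was listed at 0 in all WT cortices. Nubp2, which helps assemble iron-sulphur proteins, held 2.00%, 0.814%, 0.629% and 1.18% in hKO cortices, against 0.380%, 0.558%, 0.495% and 0% in WT cortices. In Nubp2 and Gm15051 all hKO cortices lay above all WT cortices, and in the other 4 genes the genotypes overlapped. The adjusted p limits false calls over both directions together, so all 6 upward calls beside 15456 downward ones may be false. Without 651-3, 22 genes rose. The 5600 genes that did not pass as lower were mostly genes with little mCA: limma called 2.66% of the genes in the lowest of 10 bins of level and 96.2% in the ninth.

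The ratio was narrow around its median. Over the 21018 genes with a WT mean above 0, the retained mCA had a median of 56.6%, quartiles of 53.2% and 61.7%, and a 5th and 95th percentile of 44.5% and 85.1%. Between 45% and 70% lay 17299 genes, 82.3% of those with a ratio. Only 473 genes, 2.25%, had a higher hKO than WT mean, and 389 of them had a mean mCA below 1%. Among the 15002 genes with a mean of at least 1%, the quartiles were 52.6% and 58.5%, and among the 7862 with at least 2% they were 52.6% and 57.8%. In the 1300 genes below 0.5% they were 64.2% and 91.9%. The width of the ratio thus followed how much mCA a gene carried. The quartiles of males alone were 54.03% and 65.4%, those of females alone 50.3% and 61.1%, each with 2 animals per genotype. Without 651-3, whose high values enter every WT mean, the distance between the quartiles was 11.9 points in place of 8.56.

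By rule, genes nearest to set percentiles of the ratio stand for the shape of this distribution. Gm996 lay at the 5th percentile, 3010001F23Rik at the 25th, 4931406B18Rik at the 50th, Gm13373 at the 75th and Gm12789 at the 95th. In 4931406B18Rik mCA was 0.976%, 1.37%, 1.09% and 0.875% in hKO cortices, against 1.31%, 1.94%, 2.45% and 1.904% in WT cortices, a retained mCA of 56.6%. In Gm12789 it was 0.589%, 1.16%, 2.19% and 0.602% in hKO cortices, against 0.988%, 2.02%, 2.32% and 0% in WT cortices, with a retained mCA of 85.3%. The values of Gm12789 scattered more within each genotype than between them.

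Whether genes differ from one another in retained mCA was asked on a log2 scale, with 0.1% added to each value and each animal centred on its own median gene, over the 19723 genes with a mean mCA of at least 0.5%. On this scale a gene of typical level that lost mCA in the common proportion has a difference near 0, and the added 0.1% shifts genes with little mCA upward. The SD of this centred difference over genes was 0.32, and the root-mean-square standard error of a gene, from the spread between animals, was 0.32 as well. Genes between 0.5% and 1% mCA had an SD of 0.40 and a standard error of 0.42, genes from 1% to 2% had 0.29 and 0.30, genes from 2% to 3% had 0.24 and 0.23, and genes above 3% had 0.29 and 0.30. The spread of the ratio over genes was therefore about as wide as its standard error, which holds differences between mice as well as error of measurement.

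**Figure D2:**
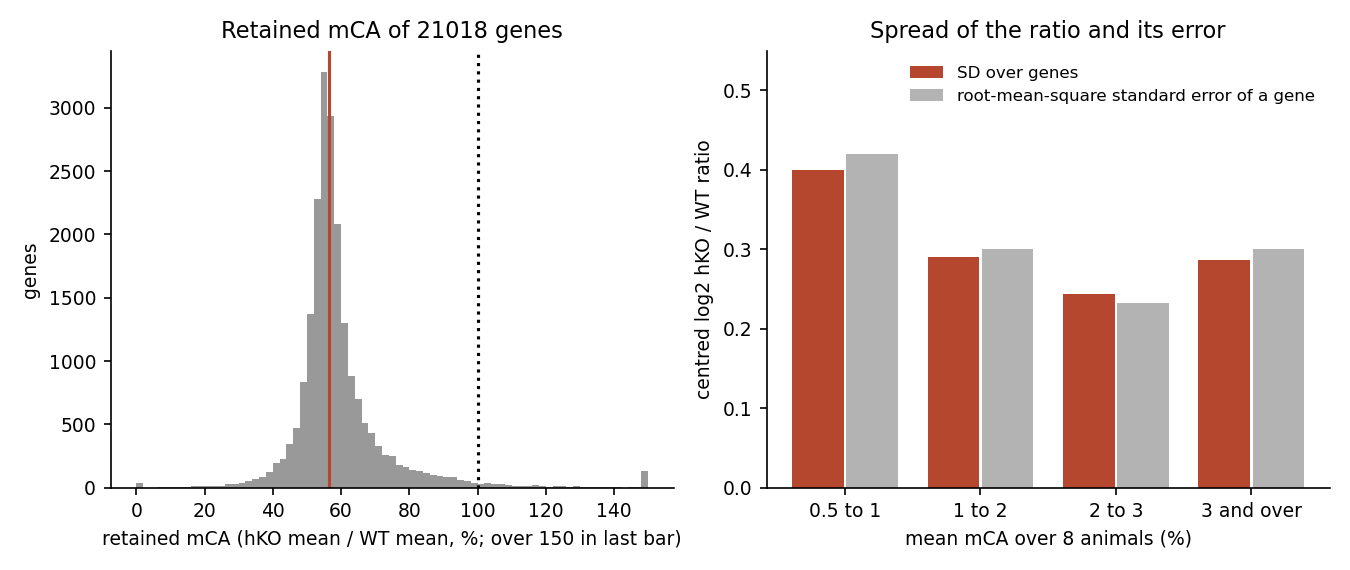
Left, retained mCA (hKO mean over WT mean, percent) of 21018 genes, with a solid line at the median of 56.6% and a dotted line at 100%. Right, for 4 ranges of mean mCA, the SD over genes of the centred log2 hKO over WT ratio beside the root-mean-square standard error of a gene; the 2 bars of each pair are nearly equal, from 0.40 beside 0.42 at the lowest level to 0.24 beside 0.23 between 2% and 3%.

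The males and the females are separate animals, so their ratios can be set side by side. Over 19723 genes the centred ratio of males had a Pearson r of 0.06 and a Spearman rho of 0.16 with that of females, as a description over genes, which share libraries and are not replicates. Within ranges of level the relation was weaker, with rho of 0.07 from 0.5% to 1%, 0.04 from 1% to 2%, 0.07 from 2% to 3% and 0.10 above 3%. The mCA difference in percentage points had a rho of 0.77 between males and females over 21056 genes. That difference mostly followed the level, with a rho of -0.93 with WT mCA. The likeness of the sexes in points therefore does not show that genes differ in the share lost.

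In limma on the centred scale, 1 of 19723 genes, 0.00507%, departed from the common ratio, toward a lower level. This was B130006D01Rik, a gene model with no role stated in the sources used here. The number of cytosines behind its values is not given, so whether they rest on few reads was not tested. It was listed at 0 in all 4 hKO cortices, without spread, and at 5.45%, 5.13%, 6.25% and 3.03% in WT cortices (limma on the centred scale, adjusted p = 0.000343). Its mCG was 50.3% ± 16.8 in hKO and 65.8% ± 25.1 in WT cortex (SD, n = 4 each), with wide scatter between animals. It did not pass in males alone, in females alone or with the title number as a replicate block, where 0 genes departed downward; 2 genes did so without hKO 694 and 3 without hKO 651-2. No gene departed upward, and 1321 genes, 6.70%, had an unadjusted p under 0.05. Gm4724 was also listed at 0 in all hKO cortices, against 1.25%, 0.943%, 0.643% and 1.25% in WT cortices, and did not pass on the centred scale (limma, unadjusted p = 0.001003).

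Retained mCA was related to the mCA level in the lower part of the range and nearly flat above it. In 10 bins of the mean over all 8 animals, the median retained mCA was 73.9% in the lowest, 63.2% in the second, 58.7% in the third and 56.8% in the fourth. In the remaining 6 bins, above a mean of 1.32%, it lay between 54.9% and 55.99%. The median hKO and WT levels of a bin were 0.394% and 0.532% at the bottom, 1.05% and 1.89% in the fifth bin and 2.45% and 4.40% at the top. A line through the 10 pairs of medians had a slope of 0.531 and an intercept of 0.0702%. The same shape appeared when genes were binned by the WT level of the other sex, from 78.3% in the lowest to 57.5% in the highest bin in males and from 69.4% to 54.8% in females.

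With the mean CC level of each genotype's shallow animals subtracted, the median retained mCA was 71.7% in the lowest bin and 55.3% in the second. It lay between 51.4% and 54.3% in the other 8. In the lowest bin the median gene held 0.378%, 0.362%, 0.546% and 0.249% in hKO cortices, against 0.487%, 0.423%, 0.824% and 0.327% in WT cortices, so the genotypes overlapped there. Both animals numbered 651 were the highest and both numbered 047 the lowest of their genotype. The hKO median of this bin, 0.394%, lies below the level of the lambda spike-in, so ratios in it rest on values near the background. In the highest bin the values were 2.34%, 2.34%, 2.71% and 2.42% in hKO cortices, against 4.06%, 4.13%, 4.97% and 4.41% in WT cortices. The subtracted CC levels, 0.267% and 0.3597%, come mostly from other animals. Among animals that also have deep libraries, CC read 0.348%, 0.347% and 0.272% in hKO 694, 046-2 and 047-1. It read 0.376%, 0.381% and 0.305% in WT 695, 046-1 and 047-2. These genotypes lie closer together than the subtracted means, and ratios with these levels subtracted were not tested.

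**Figure D3:**
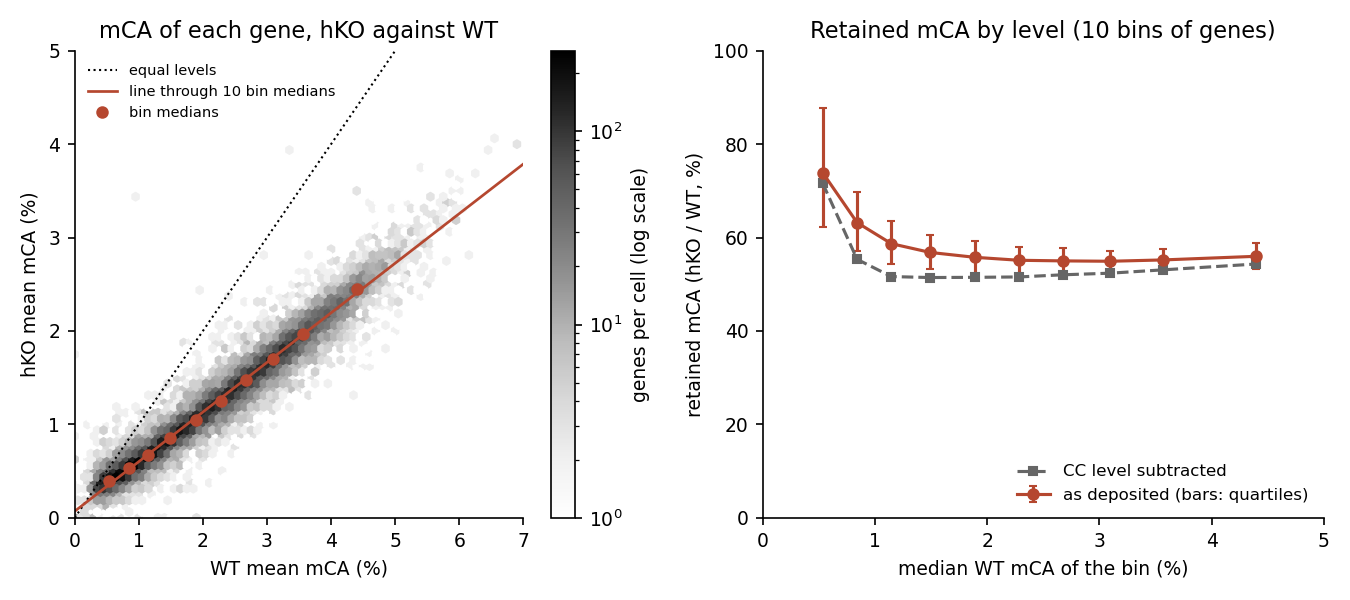
Left, mean mCA of each gene in hKO (vertical axis) against WT cortex (horizontal axis), in percent, shaded by the number of genes, with medians of 10 bins of level and the line through them (slope 0.531); most of the cloud lies under the dotted line of equal levels. Right, median retained mCA of the 10 bins with quartiles, as deposited and with the CC level subtracted, against the median WT mCA of the bin; it is 73.9% in the lowest bin and between 54.9% and 55.99% in the upper 6.

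A slope of log2 mCA on the mean over all animals was also fitted over genes in each animal, which gives 1 value per animal. The 0.1% added before taking logs flattens the slope of the lower group, so the slopes need not be equal under a fixed proportion. The slopes were 0.91, 0.92, 0.84 and 1.12 in hKO cortices, against 1.03, 1.07, 0.89 and 1.23 in WT cortices. Every hKO slope was below that of the WT animal sharing its title number, by 0.12 for 694, 0.15 for 046-2, 0.05 for 651-2 and 0.11 for 047-1, while the groups overlapped. The difference of -0.11 did not pass (exact permutation p = 0.314, adjusted 0.314). It was -0.0027 over genes of at least 1% mCA and -0.010 with the CC level subtracted (exact permutation p = 0.943 and 0.857), and it grew with the pseudocount, from -0.055 at 0.02% (p = 0.6) to -0.21 at 0.5% (p = 0.0286).

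Retained mCA varied little with the mCG level of a gene. In 10 bins of mCG it was 58.5% in the lowest, 55.9% in the fifth and 58.01% in the highest, which are genes with median WT levels of 52.4%, 78.6% and 88.3% mCG. The bins at both ends also held the least mCA, with WT medians of 1.55% and 1.37% against 2.51% in the fifth bin. Per animal, the log2 ratio of mean mCA in the quintile of genes with the highest mCG to that in the quintile with the lowest was -0.057, -0.041, -0.061 and -0.077 in hKO cortices, against -0.028, -0.0033, -0.051 and -0.035 in WT cortices. The groups overlapped slightly, and the difference of -0.030 had an exact permutation p = 0.0571 (adjusted 0.1).

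CG methylation was lower by far less. The median gene of the hKO animals held 96.6%, 94.6%, 100.2% and 97.4% of its WT mean mCG, against 98.7%, 97.2%, 103.6% and 100.8% in WT animals. The mean of 97.2% ± 2.31 in hKO against 100.05% ± 2.76 in WT cortex (SD, n = 4 each) did not pass (exact permutation p = 0.143, adjusted 0.167). Animals sharing a title number gave median ratios of 97.9% for 694 over 695, 97.3% for 046-2 over 046-1, 96.8% for 651-2 over 651-3 and 96.7% for 047-1 over 047-2. A lower hKO mean was held by 17687 genes, 84.0%, and the median difference was -2.18 points, with quartiles of -3.61 and -0.776. No gene passed limma in either direction (0 of 21056, 0%), neither on the percentage nor on a logit scale, while 2192 genes, 10.4%, had an unadjusted p under 0.05 on the percentage and 2141 on the logit scale. All 4 hKO cortices lay below all 4 WT cortices in 1041 genes, 4.94%, and above them in 12.

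The size of the mCG difference followed the mCA level of the gene. It was -0.505 points in the lowest of the 10 bins of mCA, -2.11 in the fifth and -3.54 in the highest, and each bin from lowest to highest was further below 0 than the one before. The median mCG of these bins in WT cortex differed little above the first, from 79.3% to 80.7%. Per animal, the quintile of genes with the highest mCA exceeded the quintile with the lowest in mean mCG by 1.58, 1.47, 1.87 and 2.39 points in hKO cortices, against 3.82, 4.04, 4.63 and 5.05 points in WT cortices. The groups were well apart, at 1.83 ± 0.409 points in hKO and 4.38 ± 0.560 points in WT cortex (SD, n = 4 each), a difference of -2.55 points (exact permutation p = 0.0286, the smallest possible, adjusted 0.0667). It was between -2.76 and -2.32 when any 1 animal was left out.

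The mCG difference also followed the mCG level itself. Genes in the lowest bin of mCG differed by a median of -3.31 points and those in the highest by -0.932. The quintile of genes with the highest mCG exceeded that with the lowest by 31.5, 32.4, 32.3 and 32.05 points in hKO cortices, against 29.6, 30.6, 30.05 and 29.9 points in WT cortices, and the groups did not overlap. The difference of 2.02 points had an exact permutation p = 0.0286, the smallest possible (adjusted 0.0667). In relative terms the median retained mCG was 92.2% in the lowest and 98.9% in the highest bin, so the bins differed in the share of mCG lost as well as in points.

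**Figure D4:**
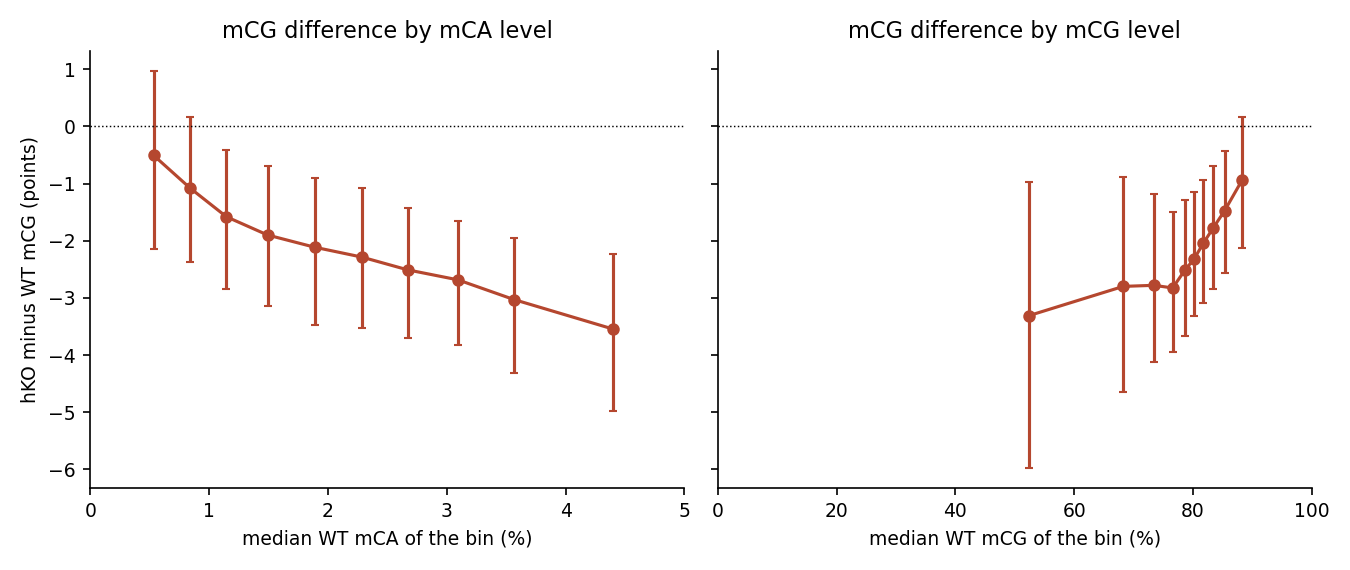
Median hKO minus WT mCG in percentage points, with quartiles, in 10 bins of mean mCA (left) and of mean mCG (right), against the median WT level of the bin in percent. The difference goes from -0.505 points in the lowest to -3.54 points in the highest mCA bin, and from -3.31 points in the lowest to -0.932 points in the highest mCG bin.

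The changes in the 2 marks were only loosely coupled gene by gene, and little of this was left once the level was removed. Over 21056 genes the mCA and mCG differences in points had a Pearson r of 0.25 and a Spearman rho of 0.35, as a description, since both come from the same libraries and share their depth. With mCA from males and mCG from females rho was 0.25, and with the sexes exchanged 0.26. After subtraction of the median of 50 level bins, rho was 0.05 in all animals, -0.02 for mCA of males with mCG of females, and 0.02 the other way. The centred log2 mCA ratio had a rho of 0.18 with the mCG difference, and 0.09 and 0.10 across the sexes. Animals of 1 genotype also deviated from their group means in both marks together, with rho between 0.035 and 0.071 in hKO and between 0.059 and 0.093 in WT animals over 19723 genes.

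Among genes in which mCA fell, 13980 of 15456, 90.5%, had a lower hKO mean of mCG, against 3707 of the other 5600 genes, 66.2%, and 84.0% of all genes. Genes called lower in mCA mostly carried more mCA, and this share rose with that level. It was 59.4% in the lowest of the 10 bins of mCA and 93.3% in the ninth, so the contrast is not separate from the level. The mCG difference of males had a rho of 0.22 with that of females over all genes, somewhat more than the 0.16 of the centred mCA ratio. Genes next to each other in the RefSeq gene order (14125 pairs that do not overlap) resembled each other in mCA level, with a rho of 0.32, and less in mCG level, with 0.12. Their centred mCA ratios had a rho of 0.05, and 0.03 when a gene in males was set against its neighbour in females. For the mCG difference these values were 0.12 and 0.08.

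Enhancers of the same table kept a like share of mCA but scattered more. Their median retained mCA was 55.96% over 32600 enhancers, with quartiles of 48.4% and 65.0%. The log2 ratio of mean mCA in enhancers to that in genes was 0.070, 0.071, 0.075 and 0.078 in hKO cortices, against 0.092, 0.072, 0.095 and 0.11 in WT cortices. The difference of -0.019 did not pass (exact permutation p = 0.0857, adjusted 0.12).

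Groups of genes with known roles were set against these figures, 20 lists in all. A member counts as lower here when its adjusted p in limma over the whole table was under 0.05, against the 73.4% found for all genes. The median retained mCA of the lists lay between 52.2% and 88.9%. The 4 lists with a WT median below 1% mCA had the 4 highest values: 88.9% in 17 clustered protocadherins, 79.0% in 130 vomeronasal receptors, 70.3% in 46 ribosomal protein genes and 66.6% in 27 genes of oxidative phosphorylation. Their WT medians were 0.312%, 0.470%, 0.685% and 0.738%. The unnamed Gm models kept a median of 56.6% and RIKEN models 55.9%, with 1772 of 2738 and 1470 of 1917 called lower. No list held a gene departing from the common ratio except the RIKEN gene models, which hold B130006D01Rik.

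**Figure D5:**
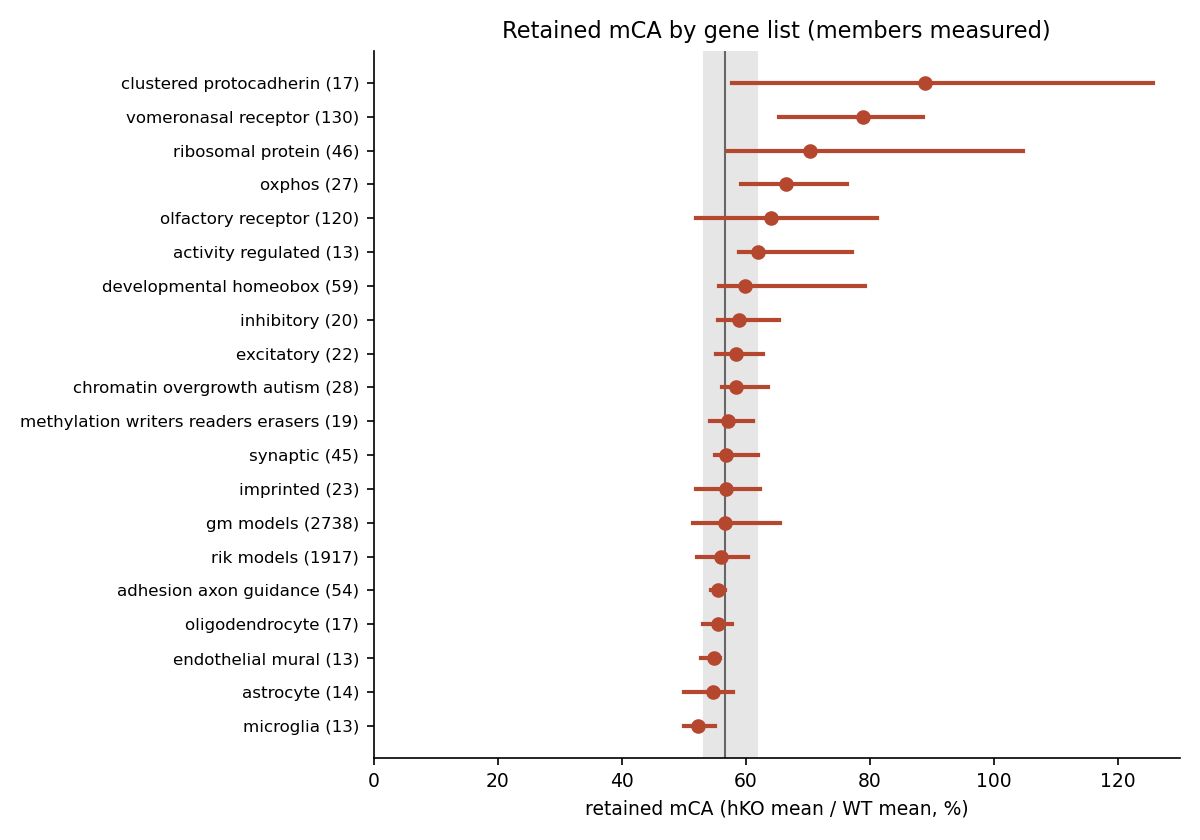
Retained mCA (hKO mean over WT mean, percent) of 20 gene lists, with the number of members measured; points are medians and lines the quartiles, and oxphos stands for oxidative phosphorylation. The grey line and band are the median of 56.6% and the quartiles of all 21018 genes; 16 of the lists lie between 52.2% and 64.1%.

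Neuronal adhesion and guidance genes, which let growing axons recognise their targets, kept to a narrow range of ratios. mCA fell in all 54 members measured, and their retained mCA ran from 53.1% to 59.4% with a median of 55.6% and quartiles of 54.5% and 56.7%. The list had a WT median of 2.66%, near that of the seventh bin of mCA level. In that bin 93.3% of genes were called lower, and the quartiles of retained mCA were 52.3% and 57.7%. Epha7, an ephrin receptor, held 1.53%, 1.43%, 1.82% and 1.46% in hKO cortices, against 2.52%, 2.74%, 3.11% and 2.85% in WT cortices. This is the median member, with a retained mCA of 55.6% and a centred log2 difference of -0.0066 (SE 0.058, unadjusted p = 0.912). Robo1, a receptor for Slit guidance cues, held 1.73%, 1.69%, 1.99% and 1.74% in hKO cortices, against 3.096%, 3.15%, 3.85% and 3.35% in WT cortices, the lowest retained mCA of the list at 53.1%. The highest, at 59.4%, belonged to Cdh10, a cadherin that joins neighbouring cells. In all 3 genes the genotypes did not overlap (limma, adjusted p = 0.000543, 0.000543 and 0.004795 in this order).

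Synaptic genes had less mCA, with list medians of 0.841% in hKO and 1.44% in WT cortex, and mCA fell in 37 of 45. Grik1, a kainate receptor subunit and the median member at 56.8%, held 1.902%, 1.904%, 2.33% and 2.01% in hKO cortices, against 3.19%, 3.36%, 4.17% and 3.63% in WT cortices. Nlgn2, an adhesion protein of inhibitory synapses, kept 52.6%, the least of the list, and its mCG was 59.1% ± 7.26 in hKO and 70.4% ± 3.81 in WT cortex (SD, n = 4 each) (limma, unadjusted p = 0.0112). Nlgn3, a related neuroligin, kept 79.3%, but its mCA of 0.528% ± 0.105 in hKO and 0.666% ± 0.218 in WT cortex (SD, n = 4 each) did not pass (limma, adjusted p = 0.376).

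Markers of neuron types were close to the common ratio. mCA fell in 17 of 22 excitatory markers, with a median retained mCA of 58.4%, and in 12 of 20 inhibitory markers, with 58.9%. Emx1, a transcription factor of cortical excitatory neurons, held 1.82%, 1.91%, 2.696% and 1.59% in hKO cortices, against 2.95%, 3.05%, 4.03% and 3.91% in WT cortices. Gad2, an enzyme of GABA synthesis, held 1.32%, 1.23%, 1.51% and 1.38% in hKO cortices, against 2.09%, 2.25%, 2.57% and 2.35% in WT cortices, and kept 58.7% (limma, adjusted p = 0.000749). Both genes were lower in every hKO cortex than in any WT cortex. Fezf2, which specifies subcortical projection neurons, ranged from 0.885% to 3.08% in hKO and from 1.58% to 6.05% in WT cortices and did not pass (limma, adjusted p = 0.0866). Neurod6, another excitatory factor, averaged 6.18% ± 1.85 in hKO and 5.33% ± 2.91 in WT cortex (SD, n = 4 each) and did not pass either (adjusted p = 0.581).

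Markers of cells other than neurons, which are active outside neurons but are read here in bulk cortex, formed the 4 lists with the lowest retained mCA as deposited, an order that did not hold with the CC level subtracted (49.3% in microglia, 52.99% in astrocyte, 51.4% in endothelial and mural and 51.7% in oligodendrocyte markers, against 51.5% in imprinted and 51.7% in synaptic genes). Their WT medians were 2.67% mCA in microglia, 3.92% in astrocyte, 2.85% in endothelial and mural and 2.83% in oligodendrocyte markers, against 3.43% in excitatory and 2.597% in inhibitory markers. mCA fell in 10 of 13 microglia, 13 of 14 astrocyte, 11 of 13 endothelial and mural and 16 of 17 oligodendrocyte markers. The median retained mCA was 52.2%, 54.7%, 54.9% and 55.5% in these lists, against 56.6% over all genes and 54.9% to 55.99% in the bins with a mean mCA above 1.32%. P2ry12, a purine receptor of microglia, held 1.62%, 1.51%, 1.699% and 1.49% in hKO cortices, against 2.81%, 2.64%, 3.63% and 3.02% in WT cortices, a centred log2 difference of -0.083 (SE 0.06, unadjusted p = 0.205). Fgfr3, a growth factor receptor of astrocytes, held 2.26%, 2.41%, 2.499% and 2.41% in hKO cortices, against 4.44%, 4.004%, 4.45% and 4.71% in WT cortices, a retained mCA of 54.4%. Neither gene overlapped between genotypes.

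Several members at the ends of these lists varied widely between animals. Sox9, a factor of glial development, kept 33.7% of its mCA, with a centred log2 difference of -0.71 (SE 0.32, unadjusted p = 0.0569). C1qb, a complement subunit made by microglia, kept 34.4%, at 1.01%, 1.06%, 1.598% and 0.463% in hKO cortices, against 2.98%, 1.89%, 3.93% and 3.202% in WT cortices. C1qc, another subunit, was listed at 0 in 2 hKO and 2 WT cortices, and its 82.1% was not called (limma, adjusted p = 0.803). Pdgfrb, a pericyte receptor, kept 50.5%, and Gpr17, a receptor of oligodendrocyte precursors, 45.7%, both called lower (adjusted p = 0.000543 and 0.00335). The median members Slco1a4, a transporter of brain endothelium, and Cnp, a myelin enzyme, kept 54.9% and 55.5%. Olig2, the oligodendrocyte lineage factor, was listed at 0 in 2 hKO and 3 WT cortices, and so was Vtn in 1 of each.

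Among genes of the methylation machinery mCA fell in 14 of 19, with a median retained mCA of 57.1%. Uhrf1, which brings DNMT1 to newly copied DNA, held 1.38%, 1.62%, 1.86% and 1.94% in hKO cortices, against 2.75%, 3.07%, 3.36% and 2.73% in WT cortices. Zbtb33, which encodes a methyl-binding protein, kept 40.6% and was called lower (limma on the percentage, adjusted p = 0.0198). Its genotypes overlapped, and it did not depart from the common ratio (limma on the centred scale, unadjusted p = 0.316).

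Chromatin regulators linked to autism and overgrowth had a WT median of 1.03% mCA, and it fell in 16 of 28. Mll3, a histone methyltransferase, kept 52.4% (limma, adjusted p = 0.002503) and Suz12, a subunit of Polycomb repressive complex 2, 57.99% (adjusted p = 0.0356). Setd2, which methylates histone H3 in transcribed genes, held 0.587%, 0.447%, 0.752% and 0.4896% in hKO cortices, against 0.714%, 0.678%, 1.09% and 0.652% in WT cortices. Its 72.5% was the highest of the list, with a centred log2 difference of 0.41 (SE 0.14, limma, unadjusted p = 0.0213, adjusted 0.737). Its percentage did not pass either (limma, adjusted p = 0.186).

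Imprinted genes, expressed from 1 parental copy, fell in 18 of 23, with a median retained mCA of 56.7%. Ndn, a gene expressed from the paternal copy, held 0.557%, 0.226%, 0.698% and 0.574% in hKO cortices, against 1.36%, 0.979%, 1.91% and 1.53% in WT cortices, and kept 35.5%. Igf2, a growth factor, held 1.36%, 1.02%, 1.15% and 0.859% in hKO cortices, against 1.45%, 1.37%, 2.03% and 1.29% in WT cortices, and kept 71.4%; it was not called (limma, adjusted p = 0.0631). The groups did not overlap in Ndn and overlapped in Igf2. The median member Magel2 kept 56.7% but was listed at 0 in 1 hKO cortex and was not called (adjusted p = 0.301).

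Activity-regulated genes, which neurons switch on when stimulated, fell in 7 of 13, with a median retained mCA of 62.0%. Egr2, a transcription factor, kept 50.2% (limma, adjusted p = 0.00435), and Npas4, which tunes inhibition after activity, kept 61.97% and was not called. Arc, a regulator of synaptic receptors, had a mean of 1.79% ± 1.41 in hKO and 1.72% ± 0.738 in WT cortex (SD, n = 4 each), with no detectable difference (adjusted p = 0.9199). Homeobox regulators of development, whose bodies carried little mCG (medians of 14.2% in hKO and 16.0% in WT cortex), fell in 25 of 59, with a median of 59.9%. Irx2, the median member above the level minimum, held 1.16%, 0.942%, 2.01% and 2.19% in hKO cortices, against 1.59%, 3.201%, 4.42% and 1.78% in WT cortices, with overlapping groups. Irx3 was listed at 0 in all 4 hKO cortices and in 1 WT cortex and was called lower (limma, adjusted p = 0.02195), and Hoxd8 was listed at 0 in 2 cortices of each genotype.

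Members of the lists with little mCA, and of the olfactory receptors, mostly did not pass. mCA fell in 6 of 27 genes of oxidative phosphorylation, 9 of 46 ribosomal protein genes, 26 of 130 vomeronasal receptors, 42 of 120 olfactory receptors and 1 of 17 clustered protocadherins, each below the 73.4% of all genes. The olfactory receptors had a WT median of 1.15%, near that of the third bin of mCA level, in which 68.2% of genes were called lower. The protocadherin, Pcdhga11, held 0.6703%, 0.593%, 0.817% and 0.521% in hKO cortices, against 1.03%, 1.01%, 1.51% and 0.983% in WT cortices, and its 57.5% is near the median of all genes. Atp5a1, a subunit of ATP synthase, held 0.545%, 0.434%, 0.771% and 0.602% in hKO cortices, against 0.4299%, 0.376%, 0.824% and 0.359% in WT cortices. Its hKO and WT ranges overlapped, and its percentage did not pass (limma, adjusted p = 0.5701). Its centred log2 difference was 1.05 (SE 0.22) and did not pass either (limma, unadjusted p = 0.00139, adjusted 0.734). Atp5a1 was named as the highest member of its list above the level minimum, so its high ratio follows from the choice. Rps15a, the median ribosomal protein gene above the level minimum, kept 65.2%, and Vmn2r25, the median among the 47 vomeronasal receptors above that minimum, 63.1%. Olfr20, an olfactory receptor, was called lower (limma on the percentage, adjusted p = 0.00223) and kept 14.8%. Its hKO values of 0.147%, 0.20%, 0.236% and 0% all lie below the hKO CC level of 0.267%. It did not depart from the common ratio (limma on the centred scale, adjusted p = 0.734).

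CG-rich and CG-poor promoters mark broadly and narrowly expressed genes, and this sequence feature was not used to choose the 21056 genes. RefSeq sequences of GRCm38.p6, from 250 bases before to 50 after the gene start, matched 13543 of the 21056 genes, and 11058 of them had a single entry. A pair of sequences, from genes picked by rule for their promoter class, shows the contrast. Capitals mark CG, 33 in 1700025G04Rik (chr1:152090271-152090570, minus strand) and 2 in Gm8251 (chr1:44079697-44079996, minus strand).
1700025G04Rik: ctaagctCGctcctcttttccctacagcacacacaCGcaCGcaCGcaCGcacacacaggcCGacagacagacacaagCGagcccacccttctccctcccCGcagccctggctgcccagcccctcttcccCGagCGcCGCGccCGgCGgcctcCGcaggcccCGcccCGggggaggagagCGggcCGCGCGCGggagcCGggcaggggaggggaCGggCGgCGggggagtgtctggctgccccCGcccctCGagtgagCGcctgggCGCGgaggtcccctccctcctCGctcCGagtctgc
Gm8251: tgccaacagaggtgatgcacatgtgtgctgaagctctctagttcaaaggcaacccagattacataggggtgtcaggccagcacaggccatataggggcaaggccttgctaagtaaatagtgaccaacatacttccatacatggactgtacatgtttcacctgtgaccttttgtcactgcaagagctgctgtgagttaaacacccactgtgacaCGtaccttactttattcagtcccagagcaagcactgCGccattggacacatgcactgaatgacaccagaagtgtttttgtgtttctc

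Both genes were picked for a retained mCA near the median of their promoter class, so their likeness in it is no result. 1700025G04Rik held 1.74%, 1.74%, 1.98% and 1.92% in hKO cortices, against 3.04%, 2.91%, 3.69% and 3.29% in WT cortices, and kept 57.1%. Gm8251 held 1.26%, 1.46%, 1.29% and 1.07% in hKO cortices, against 1.57%, 1.93%, 2.59% and 2.84% in WT cortices, and kept 56.8%. Over all 11058 genes, the quintile with the most CG (28 to 63) had a median retained mCA of 56.8% and the quintile with the fewest (0 to 4) had 56.8%. The quintiles between them had 55.8%, 56.6% and 56.9%. Per animal the log2 ratio of mean mCA in the richest to that in the poorest quintile was -0.14 ± 0.028 in hKO and -0.14 ± 0.010 in WT cortex (SD, n = 4 each), with an exact permutation p = 0.943 (adjusted 0.943). This comparison was added after the data had been seen, and p was adjusted over 9 tests. In mean mCG the richest quintile differed from the poorest by -0.588, -0.931, -0.312 and -0.512 points in hKO cortices, against 0.186, -0.194, 0.0822 and 0.0852 points in WT cortices (exact permutation p = 0.0286, adjusted 0.0643). The p was 0.0571 when hKO 046-2, WT 695, WT 651-3 or WT 047-2 was left out.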

How the data were processed

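Whole-genome bisulfite libraries of 8 cortices were analysed from a deposited table that gives, for each gene or enhancer and animal, the fraction of cytosines called methylated at CA and at CG sites. The tools named are BS-Seeker2 and bedtools and the build is mm9, all per the submitters' processing notes; versions, strand handling and coverage filters are not given in the sources used here. Left unused were 8 columns of group means made by the authors, of fractions and of methylation density (methylated cytosines per length, a signal). Fractions were multiplied by 100. The deposited fractions of the shallow libraries at CC sites, averaged per animal, served as background. The depth behind each value is unknown.

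Genotype, sex and title number came from the labels. Values per animal were compared by exact two-sided permutation tests over 70 labelings, adjusted by Benjamini-Hochberg over 7 tests. Gene tests used limma 3.58.1 in R 4.3.3 (lmFit, eBayes with a trend, Benjamini-Hochberg over all genes tested, threshold 0.05), on the percentage or on log2(percentage + 0.1) centred on each library's median; fold changes on this log2 scale understate those of low genes. Other values used scipy 1.17.1, pandas 2.3.3 and numpy 2.4.6 under Python 3.11.15. The tests were tried on simulated data with seed 1. Genes, lists and rules were chosen with earlier results of these data known. Named genes were Dnmt3a, genes departing from the common ratio, the gene nearest each of 5 percentiles of the ratio, the lowest, median and highest member of each list above 0.5% mCA, and 2 genes per promoter class; 1 of these genes is not reported here. Lists matched the table's symbols directly or through a RefSeq synonym; 17404 of 21056 symbols matched GRCm38.p6, used for names, order and promoter sequences only. Alternatives were each animal left out, each sex alone, sex as covariate, the title number as a block, other pseudocounts, filters and centrings, a logit scale, other bins and subtraction of the CC level.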

Additional observations from a re-analysis of the deposited data

Results flagged for a closer look

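Animals were marked where the gap of 1 of 4 animals to its nearest neighbour took up more of the group's range than Dixon's 95% critical value, which chance does in about 1 of 20 groups. This held for 14 of 140 groups of 4 animals over the named genes and for 5 of 98 over the lists and per-animal results; the groups share libraries and are not independent.

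Most marks fell on WT animal 651-3. Its median retained mCA was 119.1%, against 91.7% to 94.0% in the other WT animals, and its median gene mCA was 2.43%, against 1.93% to 1.94%. The median of the unnamed Gm gene models was 2.703% in this animal, against 2.16% to 2.19%, and that of the RIKEN gene models 2.84%, against 2.25% to 2.29%. Among genes it was highest at 0.824% in Atp5a1, 2.02% in Cdh10, 1.94% in Mll3, 1.51% in Pcdhga11, 1.09% in Setd2 and 1.86% in Vmn2r25. It held 2.04% in Olfr1261 and 1.402% in Rpl32, where the other WT animals are listed at 0.

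The hKO animal of the same title number, 651-2, was apart in the median of the vomeronasal receptors, at 0.666% against 0.301% to 0.362% in the other hKO animals. It was also highest at 2.09% in 4930534B04Rik, 1.99% in Robo1 and 1.35% in Vmn2r46. Other marks were WT 695 at 2.16% in Egr2, below the other WT animals, and at 9.52% in Pcdhb22, and WT 046-1 at 0.962% in Olig2, the last 2 with the other WT animals listed at 0.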

How the results depend on the processing

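Results on 1 value per animal kept their direction with each animal left out, in each sex alone, with the title number as a replicate block and under the other bins, filters and CC subtraction, the promoter comparison of mCA excepted. With 2 against 2 animals p cannot go below 0.333, and with 4 pairs not below 0.125. Median retained mCA was 58.3% in males, 54.5% in females and 56.6% with the block, and 53.1% to 60.0% with an animal left out. The mCG difference by mCG level was 1.66, 2.27 and 2.02 points, and that by mCA level -2.43, -2.59 and -2.55 points, in the same settings. The enhancer comparison was -0.026 without WT 046-1 (exact permutation p = 0.0286), and -0.026 to -0.013 over the animals left out. The slope on mCA level passed with a pseudocount of 0.5% (-0.21).

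The distance between quartiles of retained mCA was 11.4 points in males, 5.93 for genes of at least 1% and 7.796 to 11.9 (without 651-3) with an animal left out. The coupling rho was 0.27 in males, 0.29 in females and 0.18 on the centred scale. Genes departing downward numbered 0 in males, in females and with the block, and 1 to 3 with an animal left out; upward 0 to 1. Lower mCA genes numbered 10180 in females. Higher ones numbered 49 in males, 59 in females, 12 with the block and 6 to 22 with an animal left out. Called mCG genes numbered 0 to 1 in each direction with an animal left out, and 1 higher in females. Same-numbered animals deviated together with correlations of 0.0068 to 0.147, not all above 0.1, so the number was not taken to pair them, and 3 of 4 hKO animals correlated best with their own number, in the centred ratio and in mCG alike. With the block 16746 genes were lower in mCA, and B130006D01Rik lost its call as departing, which left 0 such genes. The block raised the mCG genes with unadjusted p under 0.05 to 6634, of which 0 passed after adjustment. The causes of these shifts were not tested.

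The promoter difference in mCA turned to -0.0064, -0.0032, -0.00038 and -0.0011 without hKO 694, hKO 651-2, WT 046-1 and WT 047-2, and to -0.0062 in females, within -0.0064 to 0.015 over the animals left out. Retained mCA of C1qc was 47.6% to 230.8% with an animal left out (over 100% without hKO 694, hKO 047-1 or WT 651-3) and 133.9% in males, and in males it was 105.4% in Dlx1 and 157.9% in Dlx2. Medians of the 20 lists moved by less than 1 SD of the hKO animals in all 220 settings tried, as did 693 values of named genes; 65 moved further, and 3 more crossed 100% by over 1 SD.

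Unknown depth limits all of this: the number of cytosines behind a gene listed at 0 is not given, genes below 0.5% mCA lie near the CC level, which came from other, shallow libraries, and 4 animals per genotype allow no exact p below 0.0286.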
